A study of Mus musculus with 2 samples.

Results

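Runx1 peaks around 7 genes of the Notch pathway were examined in CD4+CD8+ double-positive (DP) thymocytes, the stage of T-cell development that follows the Notch-dependent double-negative stage. The genes were the receptors Notch1, Notch2 and Notch3, the DNA-binding partner of the cleaved receptor Rbpj, and Dtx1, Hes1 and Nrarp, which are known to be activated by Notch in thymocytes. They were chosen by name, with earlier results of these data known. A peak was counted for a gene when its centre lay between 100 kb upstream and 100 kb downstream of the gene body in mm9 (NCBIM37), and this region is called the window below. The deposited Runx1 list held 3531 peaks, and 8 of them lay in the windows of the 7 genes, which were 7 of 22367 protein-coding genes. The study sequenced 1 library of chromatin precipitated with an anti-Runx1 antibody and 1 input library, made without antibody. Both came from DP thymocytes purified from the thymus of C57BL/6 mice. The labels give the antibody as anti-Runx1, with a catalogue number that differs from the one in the methods of the study, where the same number also stands for an antibody to a histone mark, H3K79me2. Which number is right was not tested. The labels give no age, no number of mice and no genetic change, whereas the methods of the study state an age range for its mice. With 1 library of each kind, no spread between replicates could be computed. The peak lists hold positions and a score per peak but no reads and no RNA, so depth was not analysed here and the cell type was not checked against its markers.

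In Notch signalling, a ligand on a neighbouring cell binds the receptor, which is cut by proteases of the ADAM family and then by gamma-secretase. The freed intracellular domain enters the nucleus, joins Rbpj and Mastermind co-activators on DNA and activates targets such as Hes1, Dtx1 and Nrarp. In the thymus, the pathway commits progenitors to the T-cell fate and sustains them up to the pre-T-cell receptor checkpoint, and its activity is known to fall as cells become DP. Runx1 is a RUNX family transcription factor that recognises TGTGGT, is required at several steps of thymocyte development and often binds near ETS factors.

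A Runx1 peak was found in the window of 3 of the 7 genes, Notch1, Dtx1 and Hes1, and in none of the windows of Notch2, Notch3, Nrarp and Rbpj. Over all protein-coding genes, 38.5% had a peak in the corresponding window, so the count of 3 of 7 lay near the background. Dtx1 held 5 of the 8 peaks, Notch1 held 2 and Hes1 held 1. In each of these 3 genes exactly 1 peak lay inside the gene body, in a coding exon of Notch1, an intron of Dtx1 and a coding exon of Hes1. The score is the authors' own value, which the files do not define, and it served only to rank peaks.

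The 4 peaks below are shown because they either lie inside the gene they were counted for or hold a RUNX motif. Sequences are the plus strand of NCBIM37, and capitals mark matches on either strand to the RUNX motif TGTGGT or its variant TGCGGT, to the composite ETS-RUNX motif GGATGTGG, and to TGGGAA, the core of the site bound by Rbpj.
Notch1 coding exon, chr2:26323905-26324091, score 26: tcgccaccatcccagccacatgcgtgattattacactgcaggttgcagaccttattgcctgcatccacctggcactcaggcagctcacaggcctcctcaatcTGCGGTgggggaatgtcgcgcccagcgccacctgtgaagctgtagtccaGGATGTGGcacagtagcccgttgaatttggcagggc
Dtx1 intron, chr5:121135772-121135958, score 21: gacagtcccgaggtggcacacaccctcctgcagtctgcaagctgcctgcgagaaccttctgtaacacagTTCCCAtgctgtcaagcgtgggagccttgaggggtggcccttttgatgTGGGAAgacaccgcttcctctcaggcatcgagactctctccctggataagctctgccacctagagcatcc
Upstream of Dtx1 and within Oas3, chr5:121225793-121225979, score 33: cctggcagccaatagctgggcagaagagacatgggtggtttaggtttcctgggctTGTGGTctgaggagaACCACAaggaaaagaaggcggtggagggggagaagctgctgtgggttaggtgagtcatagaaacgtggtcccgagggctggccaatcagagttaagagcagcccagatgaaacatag
Hes1 coding exon, chr16:30067301-30067487, score 16: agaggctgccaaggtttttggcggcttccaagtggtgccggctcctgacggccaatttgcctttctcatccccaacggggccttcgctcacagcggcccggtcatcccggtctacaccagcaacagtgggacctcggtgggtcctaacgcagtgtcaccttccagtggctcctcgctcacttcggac

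**Figure D1:**
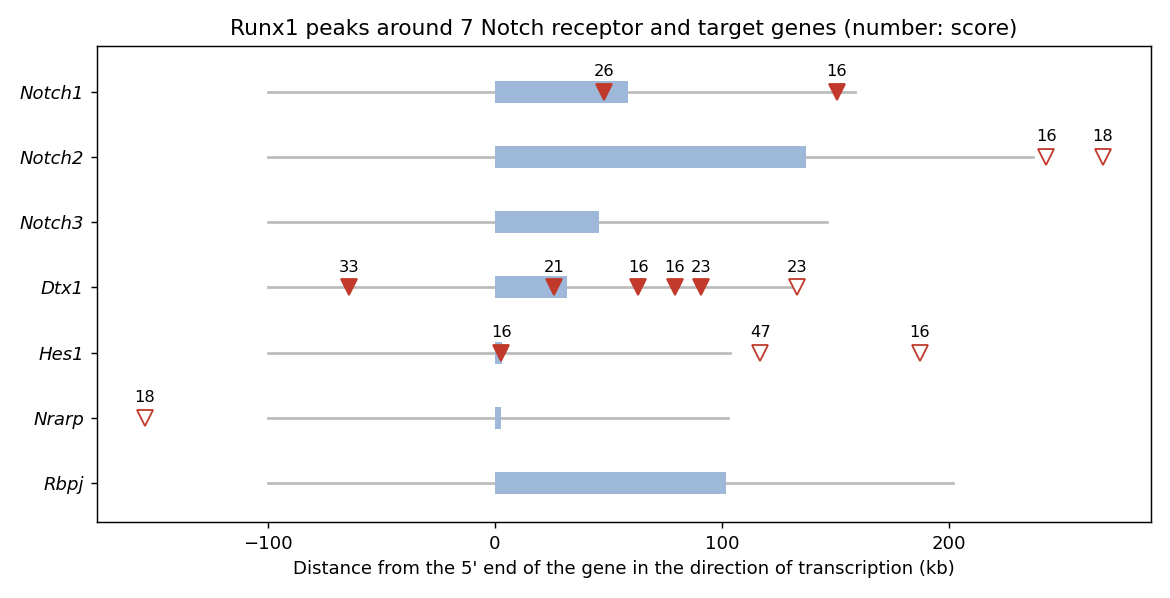
Positions of Runx1 peaks around the 7 genes, as the distance in kb from the 5' end of each gene in the direction of transcription. Blue bars are gene bodies, grey lines the windows of 100 kb on each side, filled triangles the 8 peaks inside a window and open triangles the peaks up to 200 kb from the body, each with its score. The Dtx1 window holds 5 peaks, whereas those of Notch2, Notch3, Nrarp and Rbpj hold none.

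Notch1 encodes the receptor that drives T-cell commitment. The gene (ENSMUSG00000026923.8) lies on the minus strand of chromosome 2 from 26313423 to 26372183. The peak inside Notch1 (26323905 to 26324091) had a score of 26 and lay wholly within exon 25 of the 34 exons of the transcript Notch1-001, in coding sequence. Its centre lay 35344 bp downstream of the nearest Notch1 transcription start site (TSS), which is internal to the gene and not its 5′ end. The nearest coding TSS of any gene was that of Sec16a, 23262 bp away. Among all Runx1 peaks, 17.8% had a higher score and 77.8% a lower one. The peak inside Notch1 held no TGTGGT. It held the variant TGCGGT at 26324007 to 26324012 and the composite motif GGATGTGG at 26324056 to 26324063, both in capitals in the sequence above. The composite motif was present in 4.53% of all Runx1 peaks (exact Clopper-Pearson 95% confidence interval 3.87 to 5.27%) and in 1.18% of stretches of the same width 1 kb to each side.

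The other peak in the Notch1 window (26221508 to 26221694) had a score of 16, the value shared by 42.7% of all peaks. It lay 91822 bp downstream of Notch1, in intron 20 of Snapc4, which encodes a subunit of the complex that activates small nuclear RNA genes. The nearest coding TSS was that of Card9, an adaptor of innate immune signalling, 5163 bp away. It held no RUNX motif, and 1 match to the ETS core AGGAAG. This peak lay in the windows of 10 protein-coding genes and the peak inside Notch1 in those of 6, so a position in the window does not tie a peak to Notch1.

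Dtx1 encodes Deltex1, an E3 ubiquitin ligase that modulates Notch receptors and is itself a Notch target. The gene (ENSMUSG00000029603.9) lies on the minus strand of chromosome 5 from 121130211 to 121161936. Its window held 5 peaks, and 0.644% of all protein-coding genes, or 144, had 5 or more. Neighbouring genes share peaks, and 5 of the other genes among these 144, Tpcn1, Iqcd, 1110008J03Rik, Ddx54 and Rasal1, share peaks with the Dtx1 window. The Rasal1 window held 6 peaks, among them all 5 of the Dtx1 window, so the count is not particular to Dtx1. Tpcn1, Iqcd, 1110008J03Rik and Ddx54 each shared 4. The Dtx1 count was 3 with a reach of 50 kb, and also 3 with only the peaks whose score was above the median. The scores of the 5 peaks in the Dtx1 window were 16, 16, 21, 23 and 33, as compared with a median of 18 over all Runx1 peaks.

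The peak inside Dtx1 (121135772 to 121135958) had a score of 21 and lay in intron 3 of the 10-exon transcript Dtx1-001, 26071 bp downstream of its TSS. No RUNX motif was found in it. Instead it held 2 copies of the Rbpj core TGGGAA, 1 on the minus strand at 121135841 to 121135846 and 1 on the plus strand at 121135889 to 121135894, the latter within the longer form GTGGGAA. Of all Runx1 peaks, 16.5% held TGGGAA and 1.3% held 2 or more copies. Stretches of the same width 1 kb to each side held TGGGAA in 17.5% of cases, so these letters were no more frequent in Runx1 peaks than nearby. An ETS core AGGAAG was also present, at 121135902 to 121135907 on the minus strand. Binding of Rbpj was not measured here.

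The peak upstream of Dtx1 (121225793 to 121225979) had the highest score of the 8, at 33, with 9.29% of all Runx1 peaks above it. Its centre lay 63950 bp upstream of Dtx1 and 1784 bp downstream of the TSS of Oas3, an oligoadenylate synthetase of the interferon response, in intron 1 of the transcript Oas3-001. It held TGTGGT on the plus strand at 121225848 to 121225853 and again on the minus strand at 121225863 to 121225868, in opposite orientations in the sequence above. It was the only one of the 8 peaks with TGTGGT, which was present in 25.5% of all Runx1 peaks (24.1 to 27.0%) and in 2 or more copies in 4.39%.

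The 3 remaining peaks lay downstream of Dtx1. The closest (121098713 to 121098899, score 16) was centred 15 bp before the TSS of Rasal1, which encodes a GTPase-activating protein for Ras, and 31405 bp from the end of Dtx1. With 68.4% of G and C it was the most GC-rich of the 8, as compared with a median of 54.0% over all Runx1 peaks. The next (121082548 to 121082734, score 16) lay between genes, 16180 bp upstream of the Rasal1 TSS and 47570 bp from Dtx1. The last (121071184 to 121071370, score 23) lay 58934 bp from Dtx1 in intron 10 of Ddx54, which encodes an RNA helicase. None of these 3 held TGTGGT or TGCGGT, and each held at least 1 ETS core AGGAAG. Consecutive peak centres in the Dtx1 window were 11364, 16165, 37059 and 90021 bp apart. Each of the 5 peaks lay in the windows of 7 to 9 protein-coding genes.

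Hes1 encodes a basic helix-loop-helix repressor and is a direct Notch target in many tissues. The gene (ENSMUSG00000022528.7) lies on the plus strand of chromosome 16 from 30064470 to 30067882, and no other protein-coding gene overlapped its window. Its single peak (30067301 to 30067487) had a score of 16 and lay wholly in coding sequence of exon 4 of 4, 1968 bp downstream of the TSS of Hes1-001. It was the only one of the 8 peaks within 5 kb of a TSS of the gene it was counted for, and 5.11% of protein-coding genes had a peak at that distance. None of the motifs searched was found in it, and 56.8% of all Runx1 peaks had a higher score.

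Peaks inside gene bodies were found for 3 of the 7 genes, as compared with 6.49% of all protein-coding genes. This share moved with the length of the gene, from 1.04% of genes under 5 kb, the class of Hes1 and Nrarp, through 8.08% of genes from 25 to 75 kb, the class of Notch1, Notch3 and Dtx1, to 18.9% of genes of 75 kb or more, the class of Notch2 and Rbpj. The 2 longest genes of the 7 were thus without a peak. The centre lay in a coding exon for 2 of the 8 peaks and for 3.31% of all Runx1 peaks. With 8 peaks and 1 library, no test was made of these counts.

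**Figure D2:**
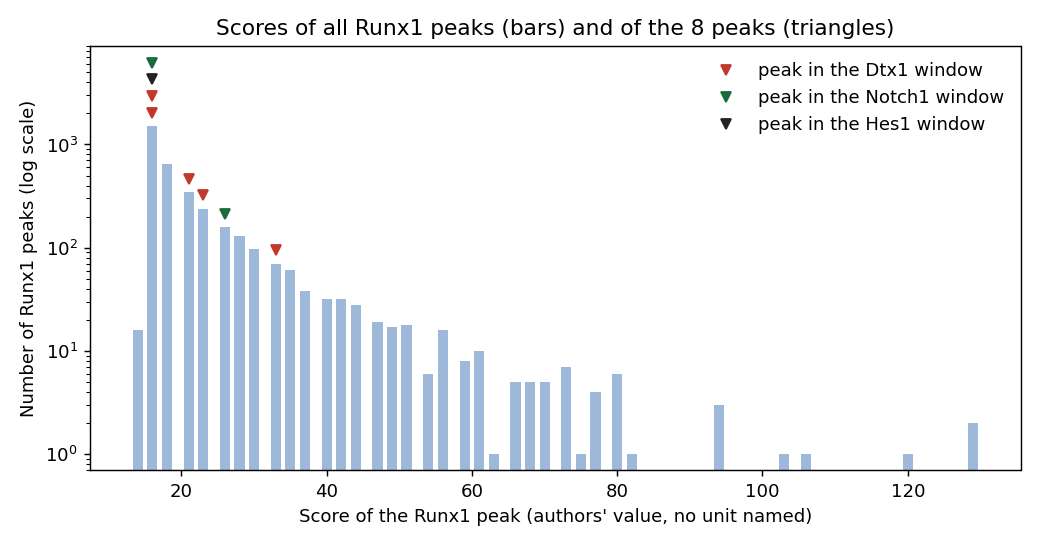
Number of Runx1 peaks at each score (blue bars, log scale), with the 8 peaks of the Notch1, Dtx1 and Hes1 windows as triangles above the bar of their score. The 8 peaks lie between 16 and 33, and 4 of them are at 16, the most frequent score in the list.

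The scores of the 8 peaks ran from 16 to 33 with a median of 18.5, against a range of 14 to 129 and a median of 18 over the list. A score above 18 was found for 4 of the 8 and for 38.7% of all peaks. The score took 35 distinct values in the list, so that many peaks are tied. The 32 bases at the centre of each of the 8 peaks occurred at 1 place in NCBIM37, a count that was not made over the whole list. No input peak overlapped any of the 8 peaks, but only 35 of all 3531 Runx1 peaks were overlapped by one. No input peak lay in any of the 7 windows, as compared with 4.03% of protein-coding genes with an input peak in the window. The input peak closest to any of the 8 was 1027459 bp away, on the chromosome of Notch1.

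Notch2 encodes a receptor better known for its role in B cells. The gene (ENSMUSG00000027878.9) lies on chromosome 3 from 97817461 to 97954290. The nearest peak (98060104 to 98060290, score 16) lay 105907 bp downstream of it and between genes, just outside the window. Of all protein-coding genes, 60.1% were farther from a peak than Notch2.

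For Nrarp (ENSMUSG00000078202.2, chromosome 2 from 25036278 to 25038850), which encodes a small ankyrin-repeat protein that limits Notch activity, the nearest peak (24882046 to 24882232, score 18) lay 154139 bp upstream in an intron of Pnpla7. This peak held TGGGAA and no RUNX motif. The median distance to a peak over protein-coding genes was 163464 bp, close to that of Nrarp. For Notch3 (ENSMUSG00000038146.7, chromosome 17 from 32257765 to 32303825), a receptor expressed in early thymocytes, the nearest peak had a score of 26 and lay 235973 bp upstream. Rbpj (ENSMUSG00000039191.6, chromosome 5 from 53947018 to 54048684) was the farthest from a peak of the 7, with 444059 bp to a downstream peak with a score of 30, and 24.4% of protein-coding genes were farther. These absences mean only that no peak passed the authors' threshold.

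The limit of 100 kb decided several of these counts. The outermost peak inside a window was the one with a score of 16 at 91822 bp from Notch1. The first peaks outside were at 101207 bp from Dtx1 with a score of 23, at 105907 bp from Notch2, and at 113465 bp downstream of Hes1 with a score of 47. The last of these (chromosome 16, 30181254 to 30181440) lay between genes, held TGTGGT, and had a higher score than any of the 8 peaks.

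**Figure D3:**
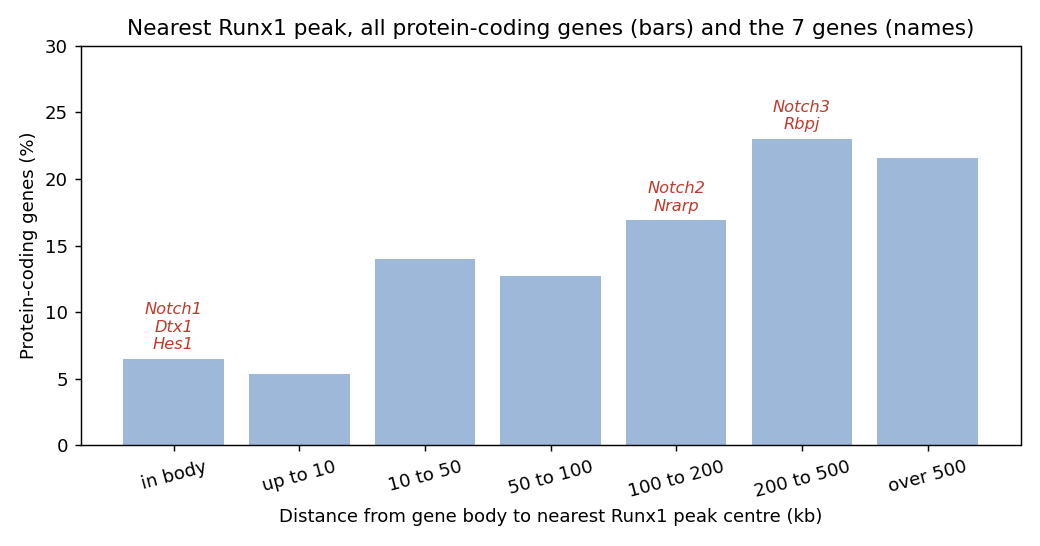
Distance in kb from the gene body to the centre of the nearest Runx1 peak, as the percentage of protein-coding genes in each class (bars), with the 7 genes named above their class. Notch1, Dtx1 and Hes1 have a peak in the body, a class with 6.49% of genes, and Rbpj and Notch3 fall between 200 and 500 kb.

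The letters of the RUNX motif were counted over the whole windows. The windows of the 7 genes held from 0.859 TGTGGT per kb at Nrarp to 1.05 per kb at Notch1, counted on both strands, and the genome 0.774 per kb. Rbpj, with no peak, had 0.888 per kb, and Dtx1, with 5 peaks, had 0.932 per kb. The Rbpj core TGGGAA ranged from 1.0 per kb at Rbpj to 1.27 per kb at Notch1, against 0.936 per kb in the genome. These short strings occur by chance and the counts describe sequence only.

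Motifs in the 8 peaks were compared with all Runx1 peaks. TGTGGT was found in 1 of the 8, and TGTGGT or TGCGGT in 2, against 32.5% (31.0 to 34.1%) of all peaks and 15.2% of stretches 1 kb away. The ETS cores CCGGAA or AGGAAG were found in 5 of the 8, against 37.6% (36.0 to 39.2%) of all peaks and 23.6% of the flanking stretches. The E-box CAGCTG, present in 20.0% of all peaks and 9.86% of the flanking stretches, was in none of the 8. The GATA motif AGATAA, less frequent in all peaks (5.41%) than in the flanking stretches (11.0%), was in 1 of the 8, that at the Rasal1 TSS. Intervals cover counting error over peaks only, and the difference between the 8 peaks and the list was not tested.

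**Figure D4:**
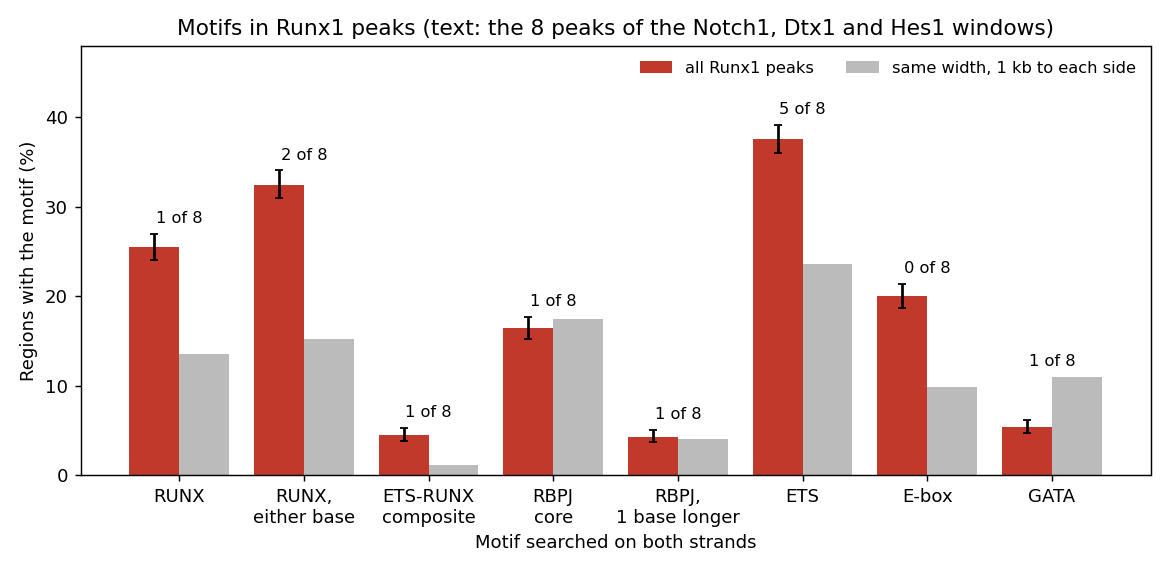
Percentage of regions with each motif on either strand, for all Runx1 peaks (red, error bars are exact 95% confidence intervals) and for stretches of the same width 1 kb to each side (grey). The text above each pair gives the count among the 8 peaks, with RUNX in 1 and ETS in 5 of them.

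The 7 windows together covered 1.78 Mb with 4.49 peaks per Mb. The windows of all protein-coding genes held 2.38 per Mb, and the whole genome 1.33 per Mb. The mean number of peaks per window was 1.14 for the 7 genes and 0.585 over all genes, and the median was 0 for both. Without Dtx1, whose window held 21.6 peaks per Mb, the mean of the other genes was 0.5. Windows with more genes held a peak more often, from 27.3% of those with 0 to 2 other coding genes to 61.9% of those with 13 or more. Dtx1 and Notch1 each had 9 other coding genes in the window, whereas Nrarp had 16 and no peak, and Hes1 had none and 1 peak.

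Other genes of the pathway were taken from a list of 39, chosen with earlier results of these data known and grouped by role. A Runx1 peak was found in the window of 27 of them, or 69.2%, beside the 38.5% of all protein-coding genes, with a median of 1 peak per window against 0. Their windows also held more genes, with a median of 6 other coding genes against 4 over all genes. By the number of other coding genes in the window, a peak was found for 4 of 8 of the listed genes with 0 to 2 (27.3% of all protein-coding genes of that class), 11 of 15 with 3 to 6 (36.9%), 11 of 14 with 7 to 12 (47.5%) and 1 of 2 with 13 or more (61.9%). No test was made of these counts. An input peak lay in the window of 3 of the 39 genes, Rfng, Itch and Maml2, beside 4.03% of protein-coding genes. Of the 41 peaks involved, 14 held TGTGGT, or 34.1%, beside 25.5% of all 3531 Runx1 peaks. Ligands, which thymocytes receive from the thymic stroma, had a peak in 1 of 5 windows, that of Dll3 at a score of 21. The only other receptor, Notch4, had a peak with a score of 33 in its window, which lay 41873 bp downstream and held 2 copies of TGTGGT. This peak was in an intron of Prrt1, 843 bp downstream of the nearest Prrt1 TSS.

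The enzymes that glycosylate the receptor, Lfng, Mfng, Rfng and Pofut1, all had a peak, 4 of 4 windows, beside 38.5% of all protein-coding genes. The 1 peak of the Rfng window had a score of 16 and lay 35722 bp upstream of Rfng. That window overlapped 11 other coding genes and held an input peak. The counts for the other roles stand beside the same 38.5%, and no test was made of them. Mfng, a Fringe that tunes the choice of ligand, had a peak with a score of 26 in an intron, 899 bp downstream of its TSS (chromosome 15, 78602913 to 78603099), which held TGTGGT. Of the receptor-cleaving proteases, 6 of 8 had a peak. Psen2, a catalytic subunit of gamma-secretase, had one with a score of 16 inside its body, 3898 bp downstream of the nearest of its annotated TSSs, which is internal to the gene and not its 5′ end. Furin had a peak with a score of 47 in its window, 48893 bp downstream of the gene. It lay in a coding exon of Unc45a, 514 bp downstream of the nearest Unc45a TSS. Aph1a had a peak with a score of 30 lying 74773 bp downstream.

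Of the regulators of receptor turnover, 6 of 7 had a peak, beside 38.5% of all protein-coding genes. The highest score was that of Itch, an E3 ubiquitin ligase, with 68 at 6808 bp upstream of its TSS (chromosome 2, 154952344 to 154952530), a peak without TGTGGT. Dtx3, related to Dtx1, had 4 peaks in its window. Nuclear co-factors had a peak in 3 of 5 windows, with none at Maml1 and Maml2. Among targets, 6 of 9 had one. Tcf7, which encodes the T-cell factor TCF1, had the highest score of the list, 120, at 31070 bp upstream of its TSS (chromosome 11, 52127658 to 52127844), in a peak with TGTGGT. Hes5 had a peak with a score of 23 lying 1264 bp downstream of its TSS, in an untranslated part of the gene. Myc, a growth regulator induced by Notch1, had one with a score of 18 and TGTGGT 1895 bp upstream of its TSS. A peak within 5 kb of a TSS was thus found for Mfng, Psen2, Hes5 and Myc, 4 of the 39 genes, beside 5.11% of all protein-coding genes.

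**Figure D5:**
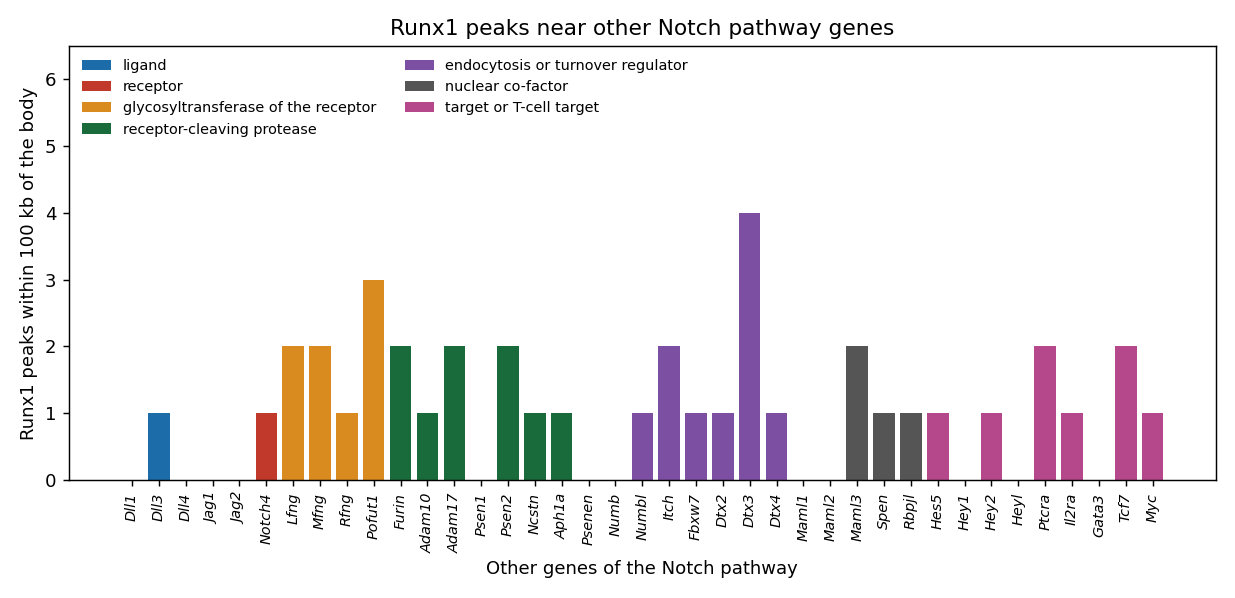
Number of Runx1 peaks in the window of each of 39 other Notch pathway genes, coloured by role. The count is 0 for 12 genes, among them 4 of the 5 ligands, and reaches 4 at Dtx3.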

How the data were processed

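The authors deposited 1 peak list per library, giving positions and a score for each peak. HOMER and mm9 are named in the submitters' processing notes, and the aligner is not given in the sources used here. The score is a whole number whose meaning is not named. BED starts were shifted to 1-based positions and set against the GENCODE annotation of NCBIM37 (mm9). Every Runx1 peak lay within its chromosome in this build. Gene bodies were the annotated spans, protein-coding genes of the mitochondrial chromosome were left out, and TSSs were those of protein-coding transcripts (for Ptcra, not annotated as coding, of any transcript). Motifs were searched on both strands in the peak as deposited. RNA values and depth were not analysed here.

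The genes, the list of 39 and the motifs were chosen with earlier results of these data known. The 7 genes are named with all their peaks, and of the 39 those with a peak within 5 kb of a TSS or the 5 highest scores; Dll3, Dtx3, Lfng, Rfng, Pofut1, Maml1 and Maml2 were named after their values were seen. No test was made, as there is 1 library of each kind. Counting was tested on simulated data, with all 500 windows counted correctly. Python 3.11.15, numpy 2.4.6, scipy 1.17.1 and pandas 2.3.3 were used.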

Additional observations from a re-analysis of the deposited data

How the results depend on the processing

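With a reach of 50 kb on each side, 5 peaks remained in the windows of the 7 genes and 25.8% of all protein-coding genes had a peak, and Notch1, Dtx1 and Hes1 were still the 3 genes with one. With 200 kb there were 14 peaks, 5 genes with a peak, as Notch2 and Nrarp were added, and 55.4% of all genes. With only the peaks whose score was above the median, 4 peaks, 17.7% of all genes and 15 of the 39 other pathway genes were left, and Hes1 no longer had a peak. Counting TGCGGT beside TGTGGT raised the number of the 8 peaks with a RUNX motif from 1 to 2. The other 13 of the 22 alternatives, which included counting by overlap, leaving out peaks overlapped by an input peak and searching 100 bases on each side of the centre, stayed within 1.5 times the reported count or within its interval.

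No paired analysis was possible because only 1 library of each kind was made. Leaving out a replicate was not possible for the same reason. The lists hold no read counts, and depth was not analysed here.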
